A study of Homo sapiens with 45 samples.

Results

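The genes described here are 9 genes of the melanocyte lineage and of pigment production, MITF, TYR, TYRP1, DCT, PMEL, MLANA, SOX10, PAX3 and MC1R. They were chosen by name and not by any measured value, though with earlier results of these data known. In the annotation used here, 8 of the 9 had at least 1 probe set, 17 probe sets in all of 54675 on the array, and these 8 genes stand among 19775 named genes. No probe set carried the name DCT, so DCT was not analysed here. For each gene the probe set of highest average signal over the 45 arrays is given, and the others where they differ.

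The data are Affymetrix U133 Plus 2.0 arrays of A375, an established human melanoma cell line, with RNA taken 48 h after transfection. In 39 arrays the cells received a pool of siRNAs against 1 gene, given as 100 nM in the sample labels and at a lower concentration in the study's methods, in 3 they received a control siRNA and in 3 they were untreated. The targeting siRNAs were transfected in 3 experimental batches, KD3 (7 arrays, MITF siRNA among them), KD1 (9 arrays) and KD2 (23 arrays). Every targeting siRNA stands for 1 culture on 1 array, without replication, and no source used here gives a batch for the control siRNA or the untreated arrays. The siRNAs were pools of several duplexes, and the control was an inactive, fluorescently labelled siRNA.

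Melanocytes make melanin in melanosomes, and the transcription factor MITF drives many of the genes needed for this. SOX10 and PAX3 are transcription factors of the neural crest lineage that act on the MITF gene from upstream. MC1R is the receptor for melanocyte stimulating hormone and acts on the MITF promoter through cyclic AMP and CREB. TYR encodes tyrosinase, the rate-limiting enzyme of melanin synthesis, and TYRP1 and DCT encode related enzymes. PMEL forms the fibrils on which melanin is laid down, and MLANA is a small melanosome protein used as a melanoma antigen.

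RefSeq start sites on GRCh38.p14 were at hand for 7 of the 9 genes, 10 windows in all, and the 250 bases before each start were searched on both strands for the M-box TCATGTG, the shorter E-box core CATGTG that lies inside it, and the cyclic AMP response element TGACGTC. The TYR window (chr11:89177625-89177874, plus strand) held 1 M-box, which begins 105 bases before the start, and a separate E-box core that begins 12 bases before it. The TYRP1 window (chr9:12693135-12693384, plus strand) held 1 M-box that begins 145 bases before the start and a separate E-box core on the other strand. The downstream MITF window (chr3:69936342-69936591, plus strand), next to the start used in melanocytes, held no M-box but a palindromic cyclic AMP response element that begins 152 bases before the start and reads the same on both strands. These 3 windows are shown because they hold the motif through which MITF acts and the one through which MC1R signalling acts, with the motifs in capitals.
MITF: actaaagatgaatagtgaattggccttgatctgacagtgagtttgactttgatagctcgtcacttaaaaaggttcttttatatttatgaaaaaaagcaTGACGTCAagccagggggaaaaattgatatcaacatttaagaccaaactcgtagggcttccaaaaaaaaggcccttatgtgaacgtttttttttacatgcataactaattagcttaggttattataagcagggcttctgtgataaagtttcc
TYR: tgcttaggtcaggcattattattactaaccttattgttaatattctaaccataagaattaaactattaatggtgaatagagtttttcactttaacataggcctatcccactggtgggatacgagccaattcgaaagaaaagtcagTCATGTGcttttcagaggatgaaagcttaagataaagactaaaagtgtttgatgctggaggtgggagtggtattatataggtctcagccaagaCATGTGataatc
TYRP1: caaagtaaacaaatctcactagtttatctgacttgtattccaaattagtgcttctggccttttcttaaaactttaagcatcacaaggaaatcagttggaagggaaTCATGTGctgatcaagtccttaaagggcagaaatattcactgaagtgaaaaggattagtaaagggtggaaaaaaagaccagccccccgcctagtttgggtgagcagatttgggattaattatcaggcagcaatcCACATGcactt

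The M-box was present in 2.52% of all 35116 windows of this length, the E-box core in 9.42% and the cyclic AMP response element in 3.12%. Of the other windows, 1 of the 2 DCT windows (chr13:94479683-94479932, minus strand) held 2 M-boxes, and the MC1R window (chr16:89918612-89918861, plus strand) held 1 E-box core. The windows of MLANA and PAX3, the upstream MITF windows and the other DCT window held none of the 3 motifs. A match is a run of letters and not a measured binding site.

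All values are log2 of RMA intensities as deposited. A probe set was called above noise at 8.59 on this scale, which is 1.5 times the median of a spiked-in control transcript (BioB). Array medians lay between 5.06 and 5.15, and 7613 probe sets passed the noise limit. The untreated array 3 and the control siRNA array 3 stood apart from all other pairs. The ratio of untreated array 3 to control siRNA array 3 lay between 0.900004 and 1.09999 in all 54675 probe sets. It was spread almost evenly over this span, with 5373 to 5637 probe sets in each of 10 equal bins, and did not follow the level (r = -0.0048 across probe sets, which are not independent). The next closest pair of arrays had 62.0% of probe sets within 10%. The cause of this was not tested, and the comparison of control siRNA with untreated arrays is given with and without both.

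Markers of other cell types were mostly dim. Of 20 measured markers of keratinocytes, fibroblasts, leukocytes and endothelium, KRT10 was the only one above noise.

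SOX10 and, in most arrays, MITF gave signal above noise in A375 cells, and the other 6 measured genes did not. SOX10 was above noise in 45 of 45 arrays and MITF in 36 of 45, each by its main probe set. The second SOX10 probe set was above noise in 36 of 45 arrays and in no KD3 array. TYR, TYRP1, PMEL, MLANA, PAX3 and MC1R were below the noise limit in every array, so differences among their values are differences between dim signals. Over the 45 arrays the log2 mean was 10.97 ± 0.55 for SOX10 and 8.74 ± 0.76 for MITF (SD, n = 45). It was 7.82 ± 0.20 for PAX3, 6.25 ± 0.40 for MC1R, 5.57 ± 0.19 for TYR and 5.42 ± 0.16 for PMEL. MLANA averaged 4.11 ± 0.12 and TYRP1 3.27 ± 0.16. The label of a melanocyte lineage thus rested in these cells on 2 of the 8 measured genes, MITF and SOX10, while the 4 measured pigment genes TYR, TYRP1, PMEL and MLANA did not pass the noise limit. Affinities differ between probe sets, so these levels give no order among genes.

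**Figure D1:**
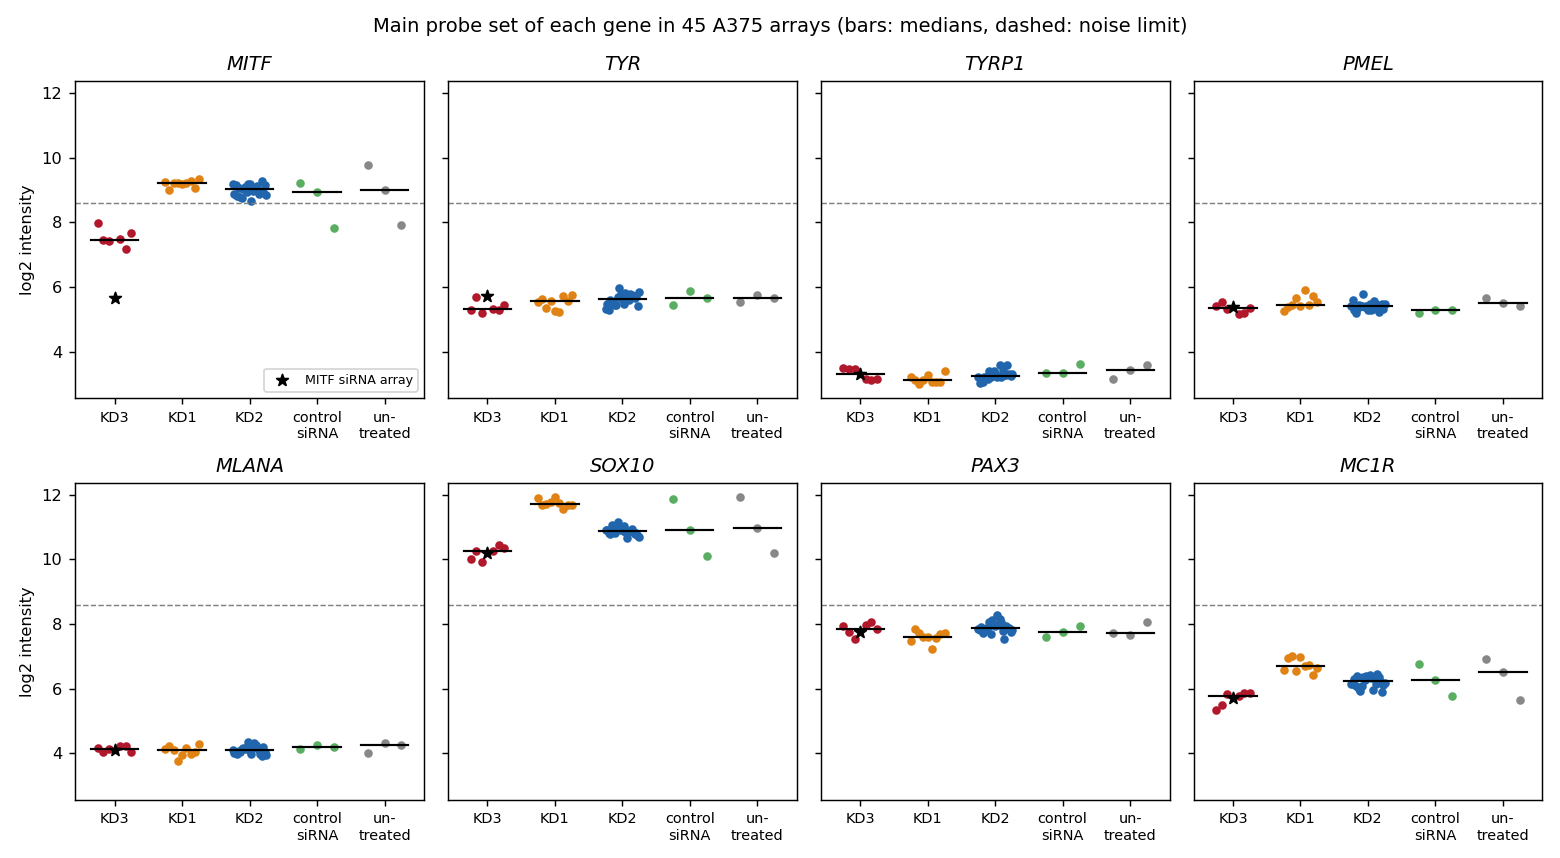
log2 intensity of the main probe set of 8 genes in each of 45 A375 arrays, by batch of targeting siRNA (KD3, KD1, KD2) and in control siRNA and untreated arrays, with bars at group medians, the noise limit of 8.59 dashed and the MITF siRNA array as a star. MITF was below the limit in all 7 KD3 arrays and above it in all KD1 and KD2 arrays, SOX10 was above it throughout, and the other 6 genes stayed below it.

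The MITF siRNA array asks whether the other genes moved when MITF itself was targeted. MITF had a log2 value of 5.67 in the MITF siRNA array. In the 6 other KD3 arrays it had 7.18 (SP1 siRNA), 7.44 (MCM2), 7.47 (ETS1), 7.48 (PIAS1), 7.68 (STAT3) and 7.99 (CCNB2). The MITF siRNA array was thus the lowest of its batch, and also of all 45 arrays. It lay 1.80 log2 units under the batch median (-1.80), against an SD of 0.27 among the 6 other arrays. With 7 arrays, the smallest one-sided exact rank p the design allows is 0.143. Both the MITF siRNA array and its batch were below the noise limit, so no fold is given within the batch. Against the median of all other arrays (9.01), MITF was at least 1.34-fold lower, counted down to the noise limit only. Every other KD3 array was also under that limit and has the same bound, so it does not separate the siRNA from the batch. The siRNAs of the study were chosen among those able to lower their own targets, so the fall of MITF is a description and no test of it was made.

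A second MITF probe set showed the same loss. It had 5.02 in the MITF siRNA array and 7.16 to 7.74 in the 6 other KD3 arrays, a difference of -2.28 from the batch median. The remaining MITF probe set was dim in all 45 arrays and stood at 0.13 from the batch median.

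None of the 7 other measured genes lay 0.5 log2 units or more from the batch median after MITF siRNA, a size that 1.71% of all 19775 genes reached in this array (0.85% higher and 0.86% lower). Their median difference was -0.035, and that of all genes was 0. SOX10 had 10.20 in the MITF siRNA array and 9.92 to 10.45 in the 6 others, and PAX3 had 7.77 against 7.53 to 8.08. Both upstream factors were therefore inside the range of the rest of their batch. TYR was the only other gene whose main probe set left that range, with 5.71 in the MITF siRNA array and 5.19 to 5.70 in the 6 others (0.40 from the batch median). TYR was higher and not lower in the array where MITF was lowest, by little more than the ETS1 siRNA array (5.70), and its 2 other probe sets stayed inside the range. Of the other dim probe sets, 1 of MLANA (0.19) and 1 of PAX3 (0.11) were also highest in this array. PMEL (0.025), TYRP1 (0), MLANA (-0.035) and MC1R (-0.073) differed from the batch median by less than the SD of the 6 other arrays. These signals were under the noise limit in all arrays, where a fall can be understated or missed, although that of MITF was seen there.

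**Figure D2:**
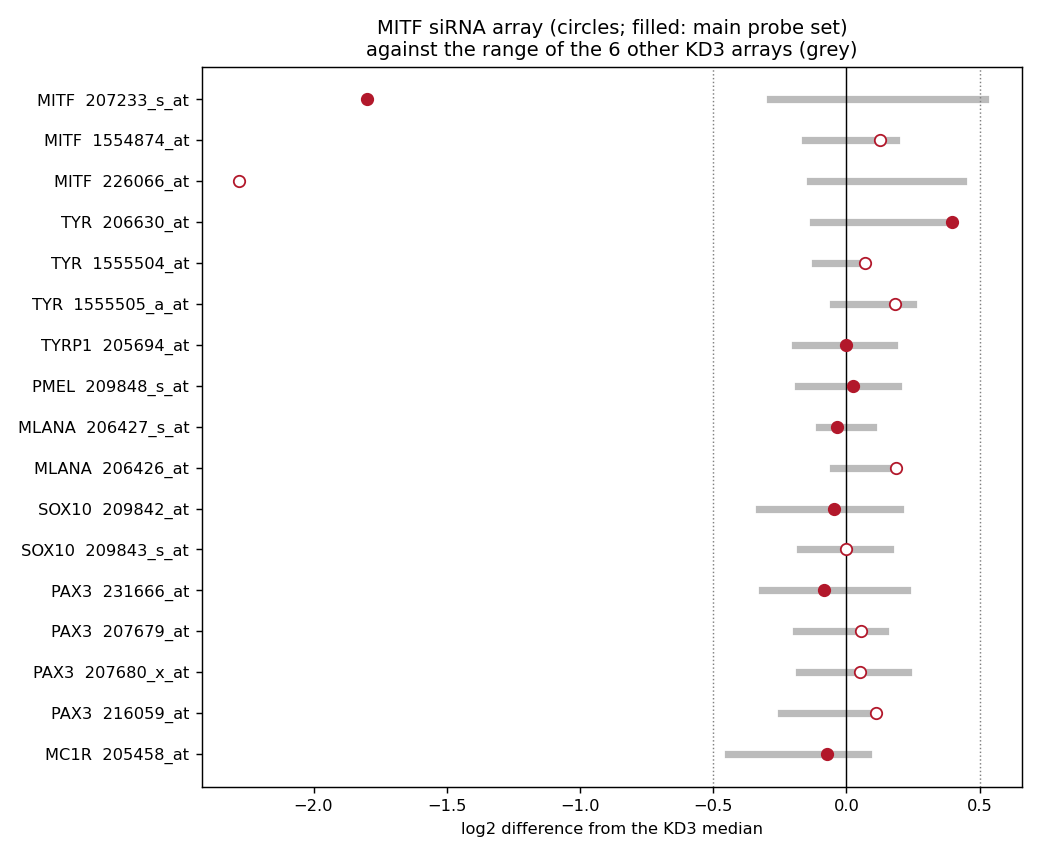
Difference of the MITF siRNA array from the KD3 batch median, in log2 units, for all 17 probe sets (circles, filled for the main probe set), with the range of the 6 other KD3 arrays in grey and dotted lines at 0.5 to either side. Of the MITF probe sets, 2 (-1.80 and -2.28) lie far to the left, and the other probe sets lie within 0.40 of the median.

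Genes known to depend on MITF outside pigment production were mostly close to their batch medians in the same array. Of 14 such genes, 1 was lower by the size limit and none was higher, with a list median of -0.081. The lower one was BCL2A1, an anti-apoptotic BCL2 relative, with 3.74 in the MITF siRNA array and 4.59 to 5.04 in the 6 other KD3 arrays (-0.89), all below the noise limit. Of 17 genes of melanosome structure and pigment transport, none passed the limit in either direction, and the list median was 0.044. Of 14 melanoblast and upstream regulators, 1 was lower, TFAP2A, a neural crest transcription factor that works with MITF. TFAP2A had 6.08 in the MITF siRNA array and 6.29 to 7.16 in the 6 others (-0.58), all below the noise limit, and the list median was -0.0082.

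Genes that mark melanoma cells with little MITF did not rise as a group. Of 8, none was higher by the limit and 2 were lower, JUN at -0.59 and the receptor kinase AXL at -0.54 (AXL was named after its value was seen). JUN, a subunit of AP-1, had 6.82 in the MITF siRNA array and 7.24 to 7.99 in the 6 others, all below the noise limit. AXL was above noise, with 10.13 in the MITF siRNA array and 10.52 to 10.73 in the 6 others, so the array was the lowest of the batch for both. The list median was -0.30.

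The 3 genes most related to MITF in sequence, TFE3, TFEB and TFEC, showed no common movement. TFE3, the only one above noise, had 9.70 in the MITF siRNA array and 9.62 to 9.82 in the 6 others. TFEB had 6.45 in the MITF siRNA array, against 5.98 to 6.30 in the 6 others (0.25), and TFEC was at its batch median. In the MC1R pathway, 0 of 10 genes passed the limit. Among markers of other cell types, 1 of 20 passed it, the fibroblast proteoglycan LUM, with 4.90 in the MITF siRNA array and 3.83 to 4.82 in the 6 others (0.59), all below the noise limit. Its part in the other values was not tested.

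Across all 39 targeting siRNAs the genes moved little. Of 312 pairs of a gene and an array, 2 lay 0.5 log2 units or more from the batch median, which is 0.641%, against 1.26% of the pairs of all genes. These were MITF in the MITF siRNA array and MITF in the CCNB2 siRNA array (0.52). The CCNB2 value did not reach the limit after quantile normalisation, with 32 added to the intensities or with the probe set of largest variance. The other 37 arrays had none. CCNB2 encodes a mitotic cyclin. MITF was at 7.99 in the CCNB2 siRNA array, the highest of the 7 KD3 arrays and still under the noise limit.

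The spread of each gene over the 39 arrays was near that of an ordinary gene, except for MITF. The SD of the differences from the batch median was 0.33 for MITF and 0.17 without the MITF siRNA array, where the median gene had 0.16. SOX10, above noise throughout, had an SD of 0.13. The lowest SOX10 values were -0.33 in the MCM2 siRNA array and -0.23 in the CCNB2 array, and the highest were 0.28 in the CDKN2C array and 0.20 in the SP1 array. After the MITF siRNA array, MITF was lowest in the FOXM1 siRNA array (-0.37), and after the CCNB2 array it was highest in the RBL2 array (0.26).

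The dim genes had extremes of a similar size. PAX3 was lowest in the HSF2 (-0.37) and NMI (-0.34) siRNA arrays and highest in the FOXM1 (0.42) and HDAC2 (0.29) arrays. MC1R was lowest in the CCNB2 (-0.44) and RELA (-0.35) arrays and highest in the CDK7 (0.31) and FOXO3 (0.29; FOXO3A in the labels) arrays. The FOXM1 siRNA array was thus second lowest for MITF and highest for PAX3 by these differences, and the CCNB2 array was highest for MITF and lowest for MC1R. TYR was lowest in the HSF2 (-0.35) and CCNA2 (-0.34) arrays and highest in the MITF (0.40) and ETS1 (0.38) arrays. PMEL was lowest in the CCNB1 (-0.20) and CDK1 (-0.20; CDC2 in the labels) arrays and highest in the HSF2 (0.46) and CDKN2C (0.39) arrays. The same CDKN2C array was the highest for SOX10. TYRP1 had its lowest values in the AKT1 (-0.25) and CCNB1 (-0.21) arrays and its highest in the RBL2 (0.34) and HDAC2 (0.31) arrays. MLANA was lowest in the CTNNB1 (-0.33) and RBL2 (-0.17) arrays and highest in the CEBPZ (0.26) and HDAC2 (0.22) arrays. CTNNB1 encodes beta-catenin, a known cofactor of MITF transcription, and MITF itself was not among the extremes in that array. Each of these is 1 array with no replicate.

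**Figure D3:**
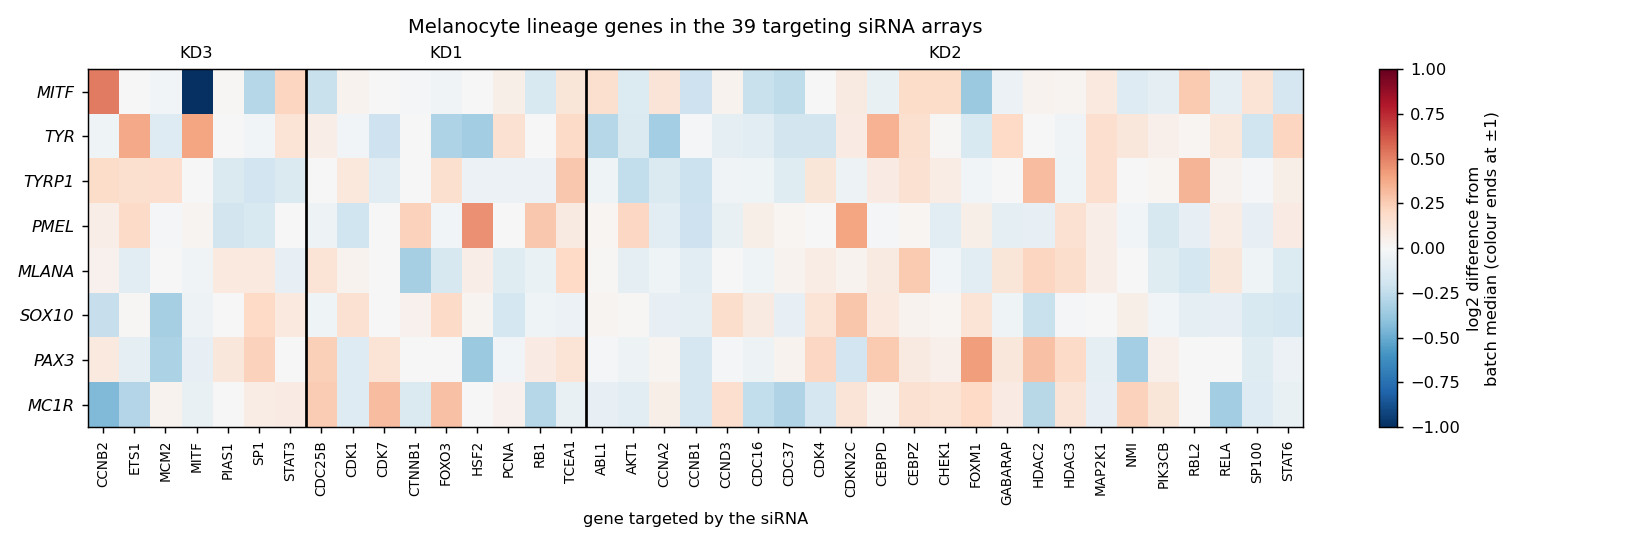
Difference from the batch median, in log2 units, of 8 genes (rows) in each of the 39 targeting siRNA arrays (columns, named by the targeted gene and grouped by batch), with the colour scale ending at 1 to either side. MITF in the MITF siRNA array (-1.80, beyond the scale) and MITF in the CCNB2 siRNA array (0.52) are the only cells past 0.5.

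MITF, SOX10 and MC1R differed between KD3 and each other batch by more than the spread of the siRNA arrays within batches. Between KD1 and KD2 this held for SOX10 only. In KD3, MITF, SOX10 and MC1R were lower than in KD2 with no overlap between the arrays, and TYR was lower by less. For MITF, the lowest, median and highest log2 values were 5.67, 7.47 and 7.99 in KD3 and 8.65, 9.02 and 9.28 in KD2. For SOX10 they were 9.92, 10.25 and 10.45 in KD3 and 10.67, 10.89 and 11.17 in KD2. MC1R had 5.34, 5.79 and 5.86 in KD3 and 5.89, 6.24 and 6.47 in KD2, so its highest KD3 array lay just under the lowest KD2 array.

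By limma on all 54675 probe sets, 4 of the 8 genes were lower in KD3 than in KD2 and 0 were higher, at an adjusted p under 0.05. Of all genes, 47.5% passed this test, 27.0% lower and 20.5% higher, and 17.6% had batches that did not overlap, as 3 of the 8 did. With only the 7613 probe sets above noise tested, those of MITF and SOX10 among them, 76.5% passed. That share was 71.3% for KD1 against KD2 and 79.4% for KD3 against KD1. MITF averaged 7.27 ± 0.75 in KD3 (n = 7) and 8.998 ± 0.16 in KD2 (n = 23), a log2 difference of -1.73 (SE 0.13, limma adjusted p = 6.72e-15). Since MITF was under the noise limit in every KD3 array, it was at least 1.33-fold lower in KD3 than in KD2. Only 0.915% of genes differed by more. Without the MITF siRNA array the difference was -1.46 (limma adjusted p = 4.66e-20). SOX10 averaged 10.21 ± 0.18 in KD3 and 10.89 ± 0.12 in KD2, which is 1.61-fold lower in KD3 (-0.68, SE 0.058, limma adjusted p = 1.08e-13). Its second probe set gave -0.84. MC1R differed by -0.52 (SE 0.079, limma adjusted p = 3.45e-07). TYR differed by -0.19 (SE 0.078, limma adjusted p = 0.0468), a call that was lost in 19 of the 39 fits with 1 array left out (adjusted p between 0.0150 and 0.146 over the 39, the highest without the MCM2 siRNA array). PAX3 differed by -0.058, PMEL by -0.070, TYRP1 by 0.032 and MLANA by 0.034, and none of these passed the test. For PAX3 the probe sets parted, since another probe set was 0.65 higher in KD3 than in KD2 (limma adjusted p = 7.22e-10) and yet another 0.27 higher (limma adjusted p = 0.00062) where the main probe set was not called. The second MLANA probe set was lower in KD3 than in KD2 (-0.18, limma adjusted p = 0.00583) and than in KD1 (-0.21, limma adjusted p = 0.00381), where the main one was not called. All of these PAX3 and MLANA probe sets were below the noise limit in every array.

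Between KD1 and KD2, SOX10 and MC1R were called again and PAX3 was called besides. SOX10 and MC1R were higher and PAX3 was lower in KD1, which is 2 higher and 1 lower of 8, where 49.1% of all genes passed (26.2% higher, 22.9% lower). SOX10 had 11.56, 11.73 and 11.92 as its lowest, median and highest values in KD1, all above every KD2 array, as was the case for 7.68% of genes in either direction. The difference was 0.85 (SE 0.053, limma adjusted p = 1.17e-17), which is 1.81-fold higher in KD1, and 1.32 by the second probe set. MC1R had 6.42, 6.70 and 7.01 in KD1, overlapping KD2, with a difference of 0.52 (SE 0.072, limma adjusted p = 7.68e-08). PAX3 had 7.22, 7.59 and 7.83 in KD1 and 7.53, 7.87 and 8.29 in KD2, a difference of -0.30 (SE 0.067, limma adjusted p = 0.000235). The PAX3 probe sets disagreed, since another was called higher in KD1 (0.34, limma adjusted p = 8.08e-06) and the remaining 2 were at 0.13 and -0.065 and not called, so PAX3 has no settled direction here. MITF had 9.004, 9.22 and 9.35 in KD1, and its difference of 0.20 from KD2 was not called (limma adjusted p = 0.183). Without the MITF siRNA array the same 0.20 was called (limma adjusted p = 0.0115). TYR, TYRP1, PMEL and MLANA were not called.

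Between KD3 and KD1, 1 gene was higher and 4 were lower in KD3, where 54.2% of all genes passed (22.7% higher, 31.5% lower). The lower ones were MITF (-1.93, SE 0.16, limma adjusted p = 2.06e-14), SOX10 (-1.54, SE 0.068, limma adjusted p = 2.73e-23), MC1R (-1.03, SE 0.092, limma adjusted p = 2.95e-13) and PMEL. Without the MITF siRNA array the difference of MITF was -1.66 (limma adjusted p = 4.95e-20). MITF was at least 1.53-fold and SOX10 2.90-fold lower in KD3 than in KD1. The second SOX10 probe set, under the noise limit in every KD3 array, gave -2.16. The arrays did not overlap for MITF, SOX10 and MC1R, as for 27.9% of all genes. PMEL (-0.19, limma adjusted p = 0.0301) and PAX3, the higher one (0.24, limma adjusted p = 0.0167), were nearer the threshold. PMEL lost its call in 5 of 39 fits with 1 array left out, the HSF2 (0.0890), PIAS1 (0.0812), SP1 (0.0733), RB1 (0.0626) or CTNNB1 (0.0569) siRNA array, and PAX3 lost it in 1, without the SP1 siRNA array (0.0550). Of the other PAX3 probe sets, 1 was also called higher in KD3 than in KD1 (0.52, limma adjusted p = 2.59e-06) and 2 were not called (-0.066 and 0.026). The 3 comparisons share their arrays, so they are not separate evidence. Each batch holds a different set of siRNAs, so batch and siRNA set cannot be told apart. No batch was repeated, so the p-values of these comparisons measure the spread of arrays within batches and not that between batches.

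**Figure D4:**
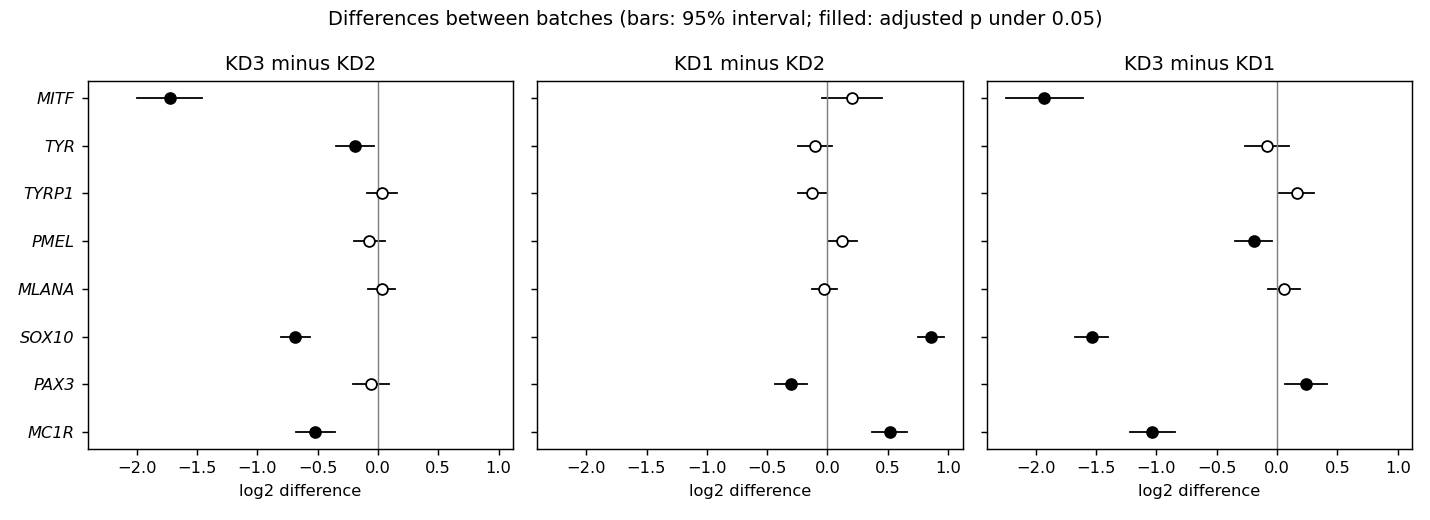
Differences between batches of targeting siRNA arrays in log2 units for 8 genes, by limma over 39 arrays (KD3 n = 7, KD1 n = 9, KD2 n = 23), with 95% intervals and filled points where the adjusted p was under 0.05. MITF, SOX10 and MC1R are lower in KD3 in both comparisons that involve it, and SOX10 and MC1R are higher in KD1 than in KD2.

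The counts of the lists that follow stand beside 27.0% of all genes called lower and 20.5% called higher in KD3 than in KD2. Of 14 melanoblast and upstream regulators, 8 were lower and 2 higher in KD3 than in KD2, with a list median of -0.71, where the median of all genes was -0.031. The most changed was SNAI2, a transcription factor of neural crest migration, which averaged 5.02 ± 0.19 in KD3 and 7.21 ± 0.40 in KD2 (-2.20, limma adjusted p = 6.07e-18). Of 14 MITF-dependent genes outside pigment production, 5 were lower and 4 higher in KD3 than in KD2, with a median of -0.078. TBX2, a growth-promoting T-box factor, averaged 6.32 ± 0.13 in KD3 and 7.85 ± 0.20 in KD2 (-1.53, limma adjusted p = 3.06e-22). Like SNAI2, TBX2 was under the noise limit on average in both batches. Of 17 genes of melanosome structure and transport, 9 were lower and 6 higher, with a median of -0.18, and of 10 genes of the MC1R pathway 5 were lower and 1 higher. Of 8 genes of the low-MITF state, 4 were lower and 2 higher.

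TFE3, the MITF relative, went the other way from MITF. It averaged 9.73 ± 0.065 in KD3 and 9.11 ± 0.12 in KD2, with no overlap, as in 17.6% of all genes (0.62, SE 0.058, limma adjusted p = 2.01e-12). All TFE3 values were above noise. TFEB (-0.0027) and TFEC (-0.016) were not called. Of 20 measured markers of keratinocytes, fibroblasts, leukocytes and endothelium, 9 were lower and 1 higher in KD3 than in KD2. Of all genes, 47.5% were called in either direction. Among the lower markers were the keratin KRT14, with 4.65 ± 0.20 in KD3 and 6.75 ± 0.31 in KD2 (-2.10, limma adjusted p = 1.78e-17), and LUM (-1.48, limma adjusted p = 1.43e-10). KRT14 and LUM were under the noise limit on average in each batch, and the part of such differences in the values of the lineage genes was not tested.

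Between KD1 and KD2 the largest list genes were NGFR, a neural crest receptor (0.96, limma adjusted p = 2.75e-09), KRT14 (0.88, limma adjusted p = 9.99e-08), OCA2, a melanosome transporter (0.82, limma adjusted p = 1.98e-11), and FOXD3, a neural crest transcription factor (0.81, limma adjusted p = 2.65e-09). Between KD3 and KD1 they were KRT14 (-2.98), SNAI2 (-2.05), TBX2 (-1.90) and NGFR (-1.82), all called. OCA2, the most changed melanosome gene in KD1, averaged 8.34 ± 0.22 in KD1 and 7.52 ± 0.22 in KD2 without overlap.

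Control siRNA set against untreated cells asks what transfection itself did. MITF had 9.23, 8.94 and 7.84 in control siRNA arrays and 9.76, 9.01 and 7.91 in untreated arrays. SOX10 had 11.87, 10.93 and 10.11 in control siRNA arrays and 11.93, 10.96 and 10.21 in untreated arrays. The 3 arrays within each group lay much farther apart than the groups did, and array 3 of each group had MITF values under those of all KD2 arrays. The batch of these arrays was not given, so their spread and any batch cannot be told apart.

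By limma, 0 of 8 genes were called in this comparison, as were 0 of all genes (0%). An unadjusted p under 0.05 was found in 97 of 54675 probe sets, where 2733.75 would be expected with no difference at all. The unpaired fit was thus very conservative, and its lack of calls cannot show that transfection changed nothing. MITF differed by -0.22 (95% interval -1.49 to 1.04) and SOX10 by -0.064 (-1.37 to 1.24) without pairing. With the replicate number as a block the intervals were -0.51 to 0.062 for MITF and -0.28 to 0.15 for SOX10, in a fit that includes both arrays 3. PMEL had 5.21, 5.29 and 5.30 in control siRNA arrays and 5.66, 5.52 and 5.41 in untreated arrays, the only gene of the 8 whose groups did not overlap, as in 2.94% of genes (-0.26, not called). With the replicate number as a block and without both arrays 3, MITF differed by -0.30 (limma adjusted p = 0.840), PMEL by -0.34 (limma adjusted p = 0.799) and SOX10 by -0.046 (limma adjusted p = 0.986). The other 5 genes differed between -0.10 (MC1R) and 0.038 (TYRP1) in the fit of all 6 arrays, and between -0.21 (MC1R) and 0.046 (TYRP1) without both arrays 3.

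Whether the genes moved together over the 39 siRNA arrays was measured by correlation after each was set to its batch median. Of 28 pairs, 0 passed an adjusted p under 0.05 with 100000 permutations within batches and adjustment over all genes, and 3 had an unadjusted p under 0.05. A lone gene at the smallest permutation p, 1e-05, adjusts to 0.198. A pair could therefore pass only if further genes had very small p-values too. The smallest unadjusted permutation p among the pairs was 0.00993, for MLANA and PAX3. MITF and SOX10 had a Spearman rho of -0.076 (permutation p = 0.660) and a Pearson r of -0.060 (permutation p = 0.782), with r at -0.076 without the CCNB2 and MITF siRNA arrays (adjusted p = 1 for MITF). Within batches the rho was -0.071 in KD3, -0.28 in KD1 and -0.038 in KD2. Without the batch median taken off, the same pair had a rho of 0.67 and the batches differed in the level of both genes. MITF and MC1R had a rho of 0.033 (permutation p = 0.840) and an r of -0.020 (permutation p = 0.898), with r at 0.095 without the 2 farthest arrays (adjusted p = 1 for MITF). Their rho was -0.18 in KD3, -0.067 in KD1 and 0.20 in KD2, and 0.73 on values that were not centred.

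SOX10 and MC1R were among the 3 pairs. Their rho was 0.39 (permutation p = 0.0160, adjusted p = 0.550 over the genes tested with SOX10) and their r was 0.39 (permutation p = 0.0170), with r at 0.44 without the CDKN2C and MCM2 siRNA arrays. The rho was 0.50 in KD3, 0.083 in KD1 and 0.50 in KD2, and 0.88 without centring. MLANA and PAX3 had a rho of 0.42 (permutation p = 0.00993, adjusted p = 0.753 for MLANA) and an r of 0.29 (permutation p = 0.0794), with r at 0.31 without the 2 farthest arrays. Their rho was 0.71 in KD3, 0.33 in KD1 and 0.40 in KD2. TYR and TYRP1 had a rho of 0.33 (permutation p = 0.0449, adjusted p = 0.278 for TYR) and an r of 0.28 (permutation p = 0.0869), with r at 0.26 without the 2 farthest arrays. Their rho was -0.29 in KD3, 0.22 in KD1 and 0.55 in KD2, so the batches did not share a sign. Both of the last 2 pairs consist of genes under the noise limit.

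**Figure D5:**
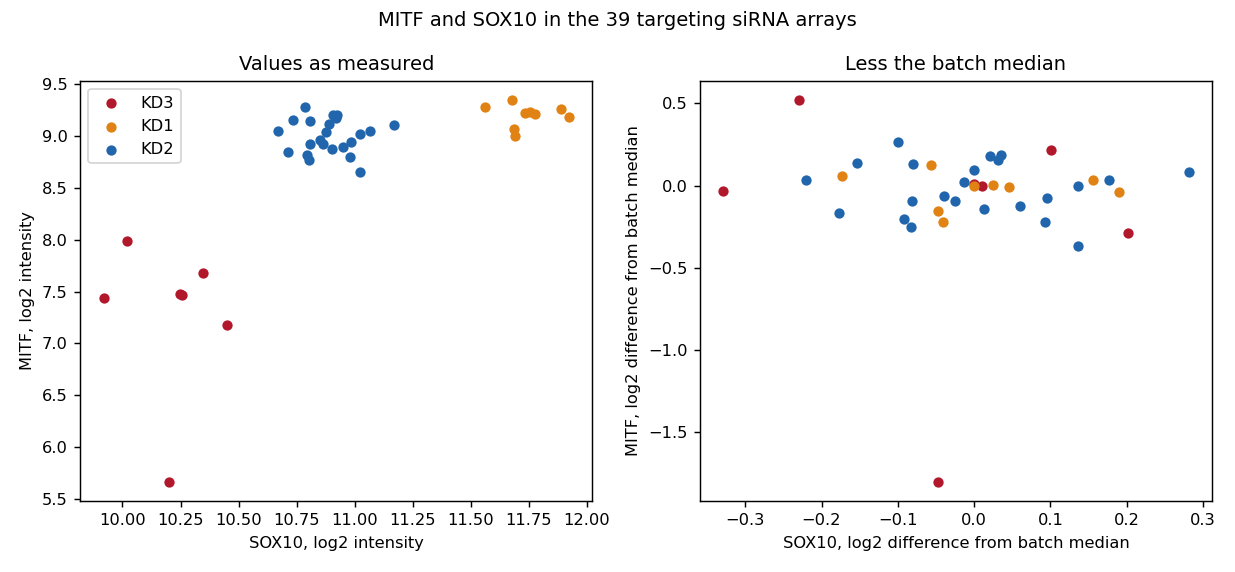
MITF against SOX10 in the 39 targeting siRNA arrays, coloured by batch, as log2 intensity (left) and as log2 difference from the batch median (right). On the left the batches form separate groups (rho 0.67 over all), and on the right no common slope is left (rho -0.076), with the MITF siRNA array at -1.80.

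The genes most like MITF over the 39 arrays, among 4799 others above noise, were MATR3, a nuclear matrix protein, TMEM214, and ALDH2, the mitochondrial aldehyde dehydrogenase. MATR3 had a rho of 0.53 (permutation p = 0.00105, adjusted p = 0.829) but an r of 0.20 (permutation p = 0.232), which was 0.47 without the 2 farthest arrays, and a rho of 0.61 in KD3, -0.13 in KD1 and 0.66 in KD2. TMEM214 had a rho of 0.50 (permutation p = 0.00095, adjusted p = 0.829), an r of 0.28 (permutation p = 0.00653) and 0.40 without the 2 farthest arrays, with 0.75 in KD3, 0.55 in KD1 and 0.44 in KD2. ALDH2 had a rho of 0.49 (permutation p = 0.00263, adjusted p = 1) and an r of 0.37 (permutation p = 0.00639), with r at 0.32 without the 2 farthest arrays and a rho of 0.93 in KD3, 0.65 in KD1 and 0.21 in KD2. None passed the adjusted test.

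SOX10 had closer companions, ESYT1, SSH1 and PXN. ESYT1, a protein of membrane contact sites, had a rho of 0.66 (permutation p = 1e-05, the smallest 100000 permutations can give, adjusted p = 0.198) and an r of 0.66 (permutation p = 3e-05), with r at 0.71 without the 2 farthest arrays. Its rho was 0.64 in KD3, 0.87 in KD1 and 0.59 in KD2. SSH1, a cofilin phosphatase, had a rho of 0.63 (permutation p = 4e-05, adjusted p = 0.198) and an r of 0.55 (permutation p = 0.00026), with r at 0.65 without the 2 farthest arrays and a rho of 0.61 in KD3, 0.72 in KD1 and 0.59 in KD2. PXN, the focal adhesion protein paxillin, had a rho of 0.61 (permutation p = 0.0001, adjusted p = 0.220) and an r of 0.63 (permutation p = 3e-05), with r at 0.57 without the 2 farthest arrays and a rho of 0.79 in KD3, 0.77 in KD1 and 0.50 in KD2. These 3 genes were picked by their rho over these same arrays, and the direction was shared by all 3 batches. A single gene at the smallest permutation p adjusts to 0.198, so the number of permutations limited what could pass. None of the 3 genes passed the adjusted test. Over all 19774 other genes, those passing it numbered 184 for TYR (0.931%), 44 for PAX3 (0.223%) and 0 for each of the other 6 genes, and TYR and PAX3 were both under the noise limit.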

How the data were processed

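The series holds 45 Affymetrix arrays of A375 cells. The authors normalised the arrays with RMA in the R package affy (version not given in the sources used here) and deposited 1 linear intensity per probe set. These intensities, between 5.54 and 32065, were taken to log2 with no further normalisation. For their own analyses the authors also scaled probe sets by batch, but batch medians still differ in the deposited values, so these carry the batch differences. Groups came from the labels and the 3 batches of targeting siRNAs from the table of targets in the paper. Gene names came from an annotation table of the array, in which 41097 probe sets had 1 gene, 1801 several and 11777 none. DCT was not among the names, so the median over the other genes after MITF siRNA covers 7 genes and not the 8 planned.

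A gene's main probe set was that with the highest mean, and the noise limit was 1.5 times the median of the BioB 3' control probe set. RMA is fitted to all arrays together and compresses low signals, so changes of dim genes are understated. Single arrays were set against their batch median, since 1 array per siRNA allows no test, and 0.5 on the log2 scale was the size limit. Batches, and control siRNA and untreated arrays, were compared in limma 3.58.1 (R 4.3.3) with Benjamini-Hochberg adjustment over all probe sets. For the groups labelled as replicates nothing says that they were separate cultures, so p-values measure only the spread between these arrays. Correlations used 100000 permutations in Python 3.11.15 (numpy 2.4.6, pandas 2.3.3, scipy 1.17.1). These were made within batches for centred values and over all arrays for values that were not centred. Control siRNA and untreated arrays of the same number deviated together (r across probe sets of 0.580, 0.671 and 0.890), which by the rule used makes the numbers a pairing, although the last value is that of the near copies. The steps were tested on simulated data.

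The genes, lists and tests were chosen with earlier results of these data known. Named besides the 8 genes were the 4 list genes with the largest change past the limit in each comparison, the MITF relatives, the 3 genes above noise most like MITF and SOX10, and the 2 highest and 2 lowest arrays of each gene. The alternatives varied the comparator, normalisation, probe set, low values, noise filter, variance model, arrays and batch centring. Promoter windows are from RefSeq (GRCh38.p14). Arrays have no read depth, so the number of arrays and the signal over the noise limit bound the precision.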

Additional observations from a re-analysis of the deposited data

Results flagged for a closer look

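MITF in batch KD3 was flagged because 1 array stood far from the rest. The MITF siRNA array had a log2 value of 5.67, and the next lowest of the 7 arrays had 7.18. This gap is 0.653 of the whole range of the batch, above the critical value of 0.568 for 7 arrays. It is the array in which MITF was the target, so the flag falls on the perturbation itself. Of 16 groups tested, 1 was flagged, and chance flags about 1 in 20.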

How the results depend on the processing

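The direction of MITF after MITF siRNA was the same under every alternative run, but its size was not, and the dimmest of the 3 MITF probe sets, not among these alternatives, did not fall (0.13). The main value of -1.80 was -3.35 against the median of all other arrays, -3.003 against the mean of all 3 control arrays, -2.28 with the probe set of largest variance and -1.34 with 32 added to the intensities. The median of the 7 other genes (-0.035) was -0.10 against the control siRNA arrays, 0 after quantile normalisation and 0.025 with the probe sets of largest variance. The 2 pairs past the size limit became 1 under a limit of 1, 1 after quantile normalisation, 1 with 32 added and 1 with the probe sets of largest variance.

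Of 54675 probe sets, 22850 were called in KD3 against KD2, 24320 in KD1 against KD2 and 26293 in KD3 against KD1. With only the 7613 probe sets above noise tested, 5825, 5425 and 6046 were called. These are 76.5%, 71.3% and 79.4% of those tested, against 41.8%, 44.5% and 48.1% of all probe sets. Leaving out each of the 39 arrays in turn gave 21541 to 23153, 22745 to 24583 and 25230 to 26468. No called gene changed sign in any fit. Besides the calls lost on leaving out 1 array, given above, the TYR call in KD3 against KD2 was lost with a trended variance (adjusted p = 0.0544) and with 32 added (0.0546). Gained calls were MITF in KD1 against KD2 without the MITF siRNA array, PMEL in KD1 against KD2 and TYRP1 in KD1 against KD2 and in KD3 against KD1, each after quantile normalisation (limma adjusted p = 0.0255, 0.0211 and 0.0196) and in some fits with 1 array left out. Control siRNA against untreated gave 0 calls in every fit, the replicate block (0), each replicate left out (0 to 0) and both arrays 3 left out (0) included. The fit with the block and without both arrays 3 was added after seeing the data. The block changed no call. Of the 28 pairs of genes, 0 passed with batch centring and permutation within batches, and 4 passed without centring. Those 4 came from permutations over all 39 arrays regardless of batch, so differences between batches enter them.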
